A study of Mus musculus with 12 samples.

Results

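The claudins described here are 8 genes of the claudin family, namely Cldn10, Cldn3, Cldn4, Cldn5, Cldn6, Cldn7, Cldn9 and Cldn12, and were taken as every probe whose platform gene symbol is one of these names. They had 12 of the 45281 probes on the array, 5 for Cldn10 and 1 for each of the other 7 genes. Cldn10 was chosen by its measured difference between genotypes in these samples, so its genotype values are given as a description with no test. The others were taken as members of its family. The samples were 12 mouse embryos of strain C57BL6/J at 8.5 days post coitum (dpc), each read on 1 single-colour Illumina bead array. All mothers were heterozygous for a Cited2 deletion, ate a control or high-fat diet beginning at 6 weeks of age and lasting 8 weeks, were then mated with heterozygous males and stayed on the diet in pregnancy. The 4 groups of 3 embryos were Cited2 -/- (knockout) embryos of control-diet mothers, knockout embryos of high-fat mothers, and wild-type embryos of each diet. Each embryo was freed of yolk sac and allantois and matched for stage by its somites. The Cited2 protein is a partner of CBP and p300, which help switch genes on. The comparisons ask what loss of Cited2, maternal diet and both together did to embryonic transcripts.

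Claudins are membrane proteins that span the membrane with 4 helices and form the strands of tight junctions between neighbouring epithelial or endothelial cells. Some seal the space between cells, and others form channels through it for selected ions. The combination of claudins in a cell layer sets how leaky it is and for which ions. In the mid-gestation embryo they are found in surface ectoderm, gut endoderm, neural epithelium and blood vessels. Cldn10 forms ion channels, and its isoforms start from alternative first exons, with Cldn10a favouring anions and Cldn10b favouring cations. Cldn3 and Cldn4 are epithelial claudins and bind Clostridium perfringens enterotoxin. Cldn5 is the main claudin of endothelium and is needed for the blood-brain barrier. Cldn6 is typical of embryonic epithelia, Cldn7 is broadly epithelial, Cldn9 is needed in the inner ear for hearing, and Cldn12 is expressed in many tissues.

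Cldn10 has a pair of annotated starts on chromosome 14, both on the plus strand, and their promoter windows are printed because the Cldn10 probes carry more than 1 transcript record. Each window runs from 250 bases before to 50 bases after the start in RefSeq's annotation of GRCm38.p6, and capitals mark matches to a searched motif.
Cldn10 upstream start, chr14:118787621-118787920: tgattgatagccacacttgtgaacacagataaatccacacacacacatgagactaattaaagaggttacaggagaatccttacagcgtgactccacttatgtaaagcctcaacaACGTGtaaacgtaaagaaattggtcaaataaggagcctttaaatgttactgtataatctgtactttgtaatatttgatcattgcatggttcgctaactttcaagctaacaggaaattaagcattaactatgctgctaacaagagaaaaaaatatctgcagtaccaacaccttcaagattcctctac
Cldn10 downstream start, chr14:118854700-118854999: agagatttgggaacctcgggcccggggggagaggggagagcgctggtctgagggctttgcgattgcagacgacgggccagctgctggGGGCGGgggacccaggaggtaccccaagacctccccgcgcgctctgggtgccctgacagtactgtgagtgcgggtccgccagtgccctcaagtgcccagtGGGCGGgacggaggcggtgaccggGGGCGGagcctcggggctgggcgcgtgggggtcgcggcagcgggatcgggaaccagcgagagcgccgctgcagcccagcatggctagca
The upstream window held 4 CpG pairs and 36.0% G or C, and the downstream window held 27 CpG pairs and 72.0% G or C. Among 32851 promoter windows of the same length, 31.4% had fewer CpG pairs than the upstream window and 84.5% fewer than the downstream window. Both strands were searched for an AP-2 motif (GCCNNNGGC), the core ACGTG of the hypoxia response element, the GC box (GGGCGG) and the TATA box (TATAAA). The upstream window held 1 ACGTG, beginning 136 bases before the start. The downstream window held 3 GC boxes, beginning 163, 63 and 39 bases before its start. No AP-2 motif or TATA box was matched in either window. Over all promoter windows, 16.6% held the AP-2 motif, 19.6% ACGTG, 35.7% the GC box and 13.6% TATAAA. The 11 windows of 7 claudins in the table held them in 4, 2, 8 and 0 windows, in that order. Windows of 1 gene overlap in part for Cldn12, so these 11 are not independent.

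Between 16584 and 18853 probes were detected per array, with detection set at a p-value under 0.01 against the negative control beads. Tests covered the 19595 probes detected on 3 or more arrays, and 10 of the 12 claudin probes were among them. Levels are log2 signals after background correction, an offset of 16 and quantile normalization, a scale that understates differences of dim probes. The Cited2 probe matched the labels, with a signal of -3.5 to 119.7 in knockout embryos, detected in 1 of 6, and of 1615.5 to 4210.3 in wild-type embryos. The arrays fell into sets A and B of 6 arrays by the scatter of their beads, with a median of 18.0% to 20.5% in set A against 21.4% to 23.8% in B. They were also separated by the leading principal component, which held 47.7% of the variance. The sources used here do not say what sets them apart. Each set held 3 knockout and 3 wild-type embryos, while 4 of the high-fat embryos were in A and 2 in B, so diet values are given within each set where that matters. Nothing in the labels tells whether embryos shared a litter, so p-values measure the spread between these embryos.

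Cldn10 signal was lower in every knockout embryo than in any wild-type embryo. Its brightest tested probe, ILMN_2515816, read 176.1, 161.7 and 232.9 in control-diet knockout embryos and 123.7, 181.2 and 164.4 in high-fat knockout embryos, as raw intensity. Control-diet wild-type embryos read 391.2, 441.5 and 411.0, and high-fat wild-type embryos 240.8, 233.8 and 315.4. The highest knockout value, 232.9, lay just under the lowest wild-type value, 233.8, before normalization.

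On the log2 scale the same probe stood at 7.73, 7.60 and 7.65 in control-diet knockout embryos, replicates 1 to 3. It stood at 7.61, 7.67 and 7.24 in high-fat knockout embryos. The control-diet wild-type embryos were at 8.67, 8.62 and 8.54, and the high-fat wild-type embryos at 8.43, 8.34 and 8.09. The genotypes did not overlap, and high-fat replicate 3 was the lowest embryo in both of them. The mean log2 signal of the knockout was 7.58 ± 0.17 and that of the wild type 8.45 ± 0.21 (SD, n = 6 each), a difference of -0.86 ± 0.10 (SE), or 1.82-fold lower in the knockout. The difference was -0.95 ± 0.15 (SE) on the control diet and -0.78 ± 0.15 (SE) on the high-fat diet. Within array sets A and B it was -0.81 and -0.92. The pooled SD of an embryo within its group was 0.15 on the log2 scale. Of the 6 numbers in the sample titles, each occurs on 1 knockout and 1 wild-type embryo of the same diet. As the genotypes did not overlap, any pairing puts the knockout lower, so nothing is read from that. The gaps by title number were -1.19 to -0.41. The smallest gap was the high-fat pair numbered 1312, with its knockout in set A and its wild type in B. The widest was the high-fat pair numbered 1216, with its knockout in set B and its wild type in A. Within groups, set B minus set A was -0.22 at this probe, and its share in these gaps was not tested. In a bulk embryo, fewer cells that express a claudin and less RNA per cell cannot be told apart.

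**Figure D1:**
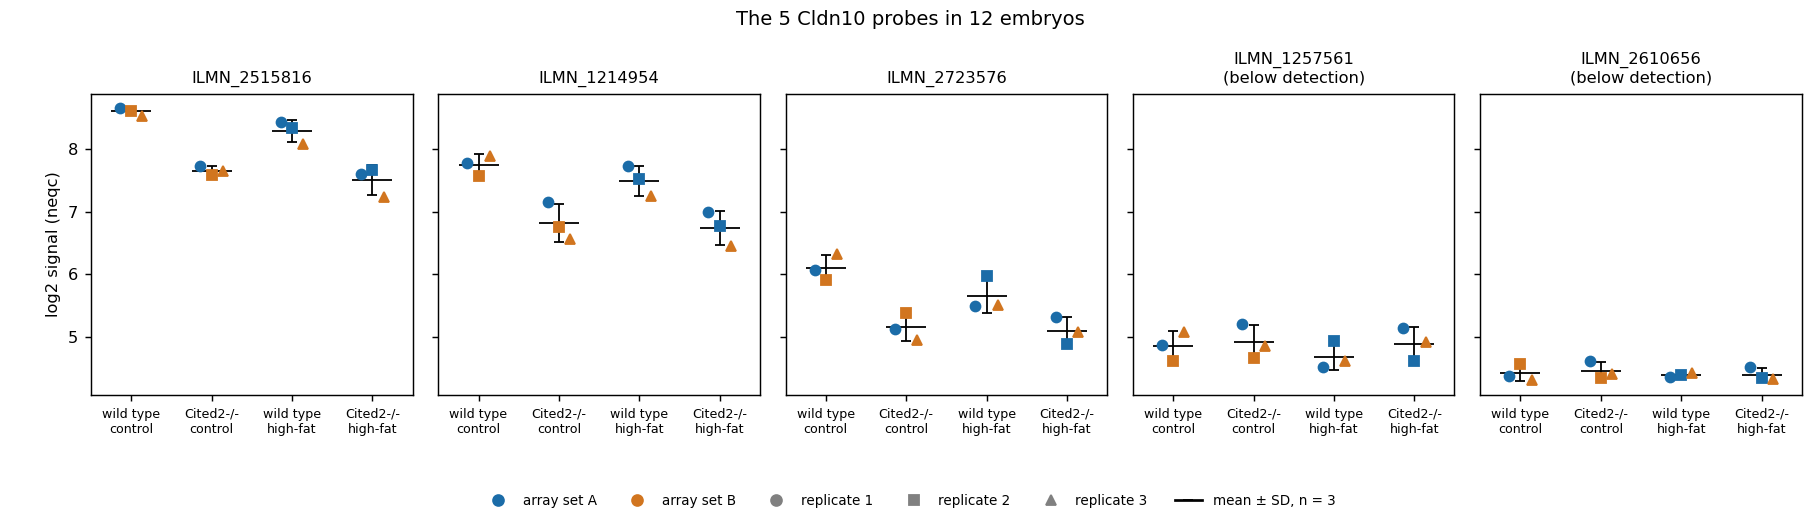
Log2 signal of the 5 Cldn10 probes in each embryo, by diet and genotype, with group means and SD (3 embryos per group). At ILMN_2515816, ILMN_1214954 and ILMN_2723576 all 6 knockout embryos lie below all 6 wild-type embryos, while ILMN_1257561 and ILMN_2610656 were detected on no array.

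The other Cldn10 probes were compared with ILMN_2515816 by their differences, since levels of separate probes cannot be set against each other. ILMN_2515816 and ILMN_2723576 are annotated to the transcript record NM_021386, and ILMN_1214954 and ILMN_2610656 to NM_023878. The sources used here do not give where each probe lies in its transcript. ILMN_1214954 was detected on all 12 arrays and stood at 7.16, 6.75 and 6.57 in control-diet knockout and 6.99, 6.78 and 6.45 in high-fat knockout embryos. Its wild-type values were 7.79, 7.57 and 7.90 under control diet, and 7.73, 7.52 and 7.25 under high-fat diet. The knockout and wild-type embryos were separated here too, though narrowly between 7.16 and 7.25. The means were 6.78 ± 0.26 and 7.63 ± 0.23 (SD, n = 6 each), a difference of -0.84 ± 0.14 (SE), with -0.70 and -0.98 within sets A and B.

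ILMN_2723576 had a weak signal, detected in all 6 wild-type embryos and in 1 of 6 knockout embryos, control-diet replicate 2. It stood at 5.12, 5.39 and 4.95 in control-diet knockout, 5.32, 4.88 and 5.09 in high-fat knockout, 6.07, 5.91 and 6.32 in control-diet wild-type and 5.49, 5.97 and 5.51 in high-fat wild-type embryos. The measured values did not overlap between genotypes on the log2 scale and differed by -0.76, but 5 of the 6 knockout readings were not detected, so the size of this difference is partly set by background. Their raw intensities overlapped, at 14 to 23.4 in the knockout and 20.2 to 77.1 in the wild type. As no high-fat knockout embryo had a detected signal, that group has only a bound. By the group means of these embryos, the probe was at least 1.35-fold lower there than in high-fat wild-type embryos. The bound leaves out the spread between embryos and describes a gene chosen for this difference. The raw high-fat readings overlapped, at 14 to 21.2 in the knockout and 20.2 to 37.2 in the wild type. The bound compares a wild-type mean of 5.66 with a floor of 5.23, the mean over arrays of the higher of the dimmest detected probe and the probe's own value, and the measured knockout mean was 5.10.

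The remaining Cldn10 probes carried no detected signal. ILMN_1257561, annotated to AK085147, read 1.4 to 20.4, and ILMN_2610656 read -8.6 to 4.9, with neither detected on any array. Their knockout minus wild-type differences of 0.13 and 0.02 are differences between background readings. Over the 12 arrays, Pearson's r between the 3 tested Cldn10 probes was 0.948, 0.857 and 0.863, and these values include the genotype difference for which the gene was chosen. Against the undetected probes it ranged from -0.21 to 0.07. Over all tested probes, 32 of 19595 (0.163%) had every knockout embryo below every wild-type embryo. All 3 tested Cldn10 probes are among those 32, but the gene was chosen for its genotype difference, so nothing is read from that. ILMN_2723576, detected in 1 of 6 knockout embryos, was among the tested probes only through its detection in wild-type embryos.

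The other 7 claudins did not pass the threshold for a genotype difference, and the knockout and wild-type embryos overlapped at each of them. Of the 10 tested claudin probes, 1 had an adjusted p under 0.05 for genotype averaged over diets, against 0.0714% of all tested probes (14 of 19595) in either direction and 0.0459% that were lower. That 1 was the Cldn10 probe ILMN_2515816, whose gene was chosen for this contrast, so nothing is read from the count. The call was lost when the number in the sample titles was fitted as a block, and the labels do not say what that number marks. An unadjusted p under 0.05 was reached by 3 claudin probes, all of Cldn10. The median difference over the 10 probes was 0.02, against -0.0005 over all tested probes. Every adjusted p of the other 7 genes was 1.00 (limma, Benjamini-Hochberg over all tested probes).

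Among the sealing claudins of epithelia, Cldn3 differed between knockout and wild type by 0.16 ± 0.11 (SE), with a 95% interval of -0.09 to 0.40, and Cldn4 by 0.11 ± 0.11 (SE), with an interval of -0.13 to 0.36. Cldn7 differed by 0.11 ± 0.11 (SE), with an interval of -0.12 to 0.34. Cldn6, the claudin typical of embryonic epithelia, differed by 0.15 ± 0.12 (SE), with an interval of -0.12 to 0.42. The endothelial Cldn5 differed by -0.12 ± 0.16 (SE), with an interval of -0.48 to 0.24. Cldn9 gave 0.01 ± 0.13 (SE), with an interval of -0.28 to 0.30. Cldn12 had the widest interval, -0.53 to 0.58 around 0.03 ± 0.25 (SE).

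**Figure D2:**
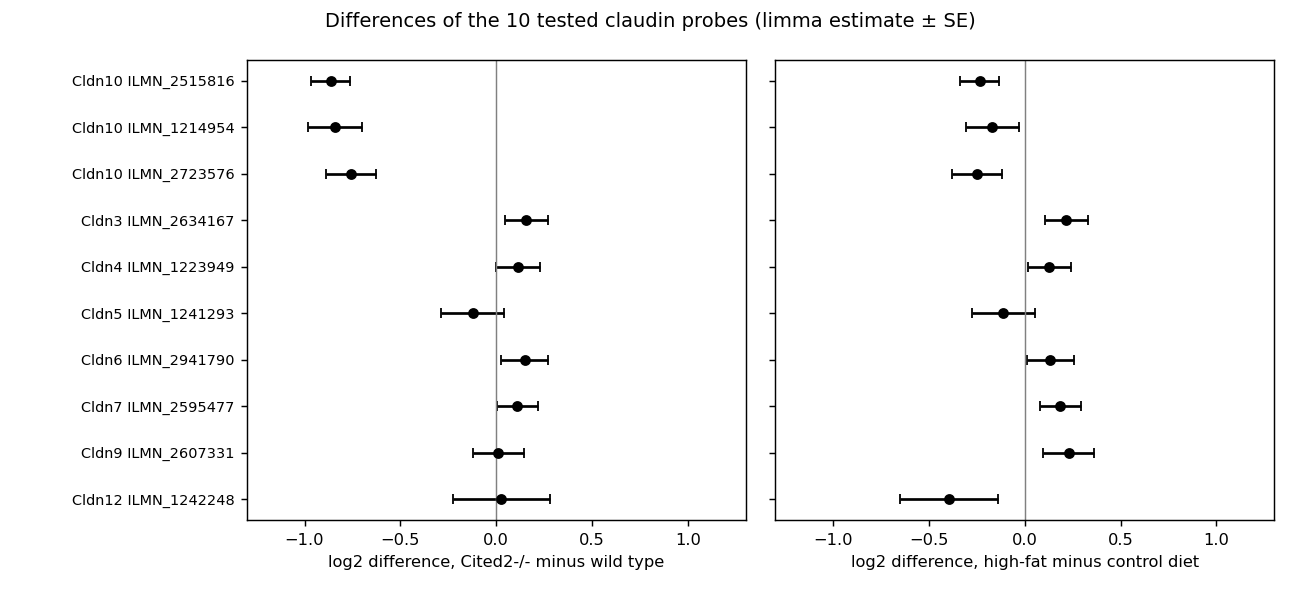
Knockout minus wild-type and high-fat minus control differences of log2 signal for the 10 tested claudin probes, each with its SE. The knockout readings of ILMN_2723576 were mostly undetected. The 3 Cldn10 probes stand between -0.86 and -0.76 for genotype, a contrast for which the gene was chosen, and the other 7 claudins between -0.12 and 0.16.

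For the genotype contrast within the control diet, 0 of the 10 claudin probes were called by limma, against 0.0408% of all tested probes, and 3 had an unadjusted p under 0.05. Within the high-fat diet the count was again 0, against 0.0153% of all tested probes, and 3 had an unadjusted p under 0.05. In both diets these 3 were the Cldn10 probes, from which nothing is read. The interaction of diet and genotype called 0 claudin probes, against 0% of all tested probes, and 0 had an unadjusted p under 0.05. For Cldn10 the interaction was 0.17 ± 0.21 (SE) at ILMN_2515816 and 0.17 ± 0.28 (SE) at ILMN_1214954, each with an adjusted p of 1.00 in limma. None is given for ILMN_2723576, whose high-fat knockout readings were all undetected. The interaction of the other claudins ran from -0.29 ± 0.51 (SE) for Cldn12 to 0.06 ± 0.21 (SE) for Cldn7.

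The choice of genes did not use the maternal diet contrast, though earlier results of these data were known. Maternal diet gave 0 called claudin probes of 10 when averaged over genotypes, against 0% of all tested probes (limma), and 1 claudin probe had an unadjusted p under 0.05. Over all tested probes 0 were called and 2314 had an unadjusted p under 0.05. The claudin median of high-fat minus control was 0.01, against 0.03 over all tested probes. The 1 probe was Cldn10's ILMN_2515816, at 8.13 ± 0.52 in control and 7.90 ± 0.47 in high-fat embryos (SD, n = 6 each, both genotypes). Its difference of -0.23 ± 0.10 (SE) had an unadjusted p of 0.0418 and an adjusted p of 0.418 in limma. ILMN_1214954 gave -0.17 ± 0.14 (SE), with an adjusted p of 0.561. ILMN_2723576, with its mostly undetected knockout readings, gave -0.25 ± 0.13 (SE), with an adjusted p of 0.440. In wild-type embryos the difference at ILMN_2515816 was -0.32 ± 0.15 (SE), and every control embryo (8.54 to 8.67) lay above every high-fat embryo (8.09 to 8.43), with an adjusted p of 0.830. That order was found at 3.64% of all tested probes. In knockout embryos it was -0.15 ± 0.15 (SE), with an adjusted p of 0.793, and the embryos overlapped. Within array sets A and B, high-fat minus control at this probe was -0.18 and -0.44.

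Cldn3 did not overlap between the diets in wild-type embryos and did not pass the test. It stood at 5.94, 6.07 and 6.20 in control-diet and 6.41, 6.28 and 6.42 in high-fat wild-type embryos, a difference of 0.30 ± 0.16 (SE) with an adjusted p of 0.830 in limma. The high-fat embryos lay wholly above the control embryos in this way at 4.11% of all tested probes. The knockout embryos overlapped, at 6.67, 6.20 and 6.06 under control diet against 6.41, 6.53 and 6.39 under high-fat diet. Averaged over genotypes, Cldn3 differed by 0.22 ± 0.11 (SE), with an adjusted p of 0.438, and by 0.10 and 0.27 within sets A and B. With median scaling the averaged difference was 0.06. With array weights it was 0.24 (adjusted p = 0.0396 in limma), a setting that called 6128 of 19595 probes for diet. Within wild-type embryos 0 of 10 claudin probes were called, against 0% of all tested probes, and 2 had an unadjusted p under 0.05, both of Cldn10. Within knockout embryos 0 were called, against 0% of all tested probes, and 0 had an unadjusted p under 0.05.

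Diet differences of Cldn4, Cldn7 and Cldn9 did not pass the test, and their size depended on the processing. Cldn4 was at 9.73 ± 0.30 and 9.87 ± 0.12 in control and high-fat knockout embryos, and at 9.63 ± 0.13 and 9.74 ± 0.12 in the wild type (SD, n = 3 each). Its diet difference was 0.13 ± 0.11 (SE), with an adjusted p of 0.583. Cldn7 was at 6.47 ± 0.10 and 6.68 ± 0.12 in the knockout and at 6.39 ± 0.15 and 6.54 ± 0.25 in the wild type, a difference of 0.19 ± 0.11 (SE) with an adjusted p of 0.453. Its knockout embryos did not overlap between diets, at 6.36 to 6.55 on control and 6.61 to 6.82 on high-fat diet, a difference of 0.21 ± 0.15 (SE) with an adjusted p of 0.788, and 8.49% of all tested probes were separated in that order. Cldn9, the inner-ear claudin, was at 6.38 ± 0.26 and 6.53 ± 0.27 in the knockout and at 6.29 ± 0.18 and 6.60 ± 0.22 in the wild type. It differed by 0.23 ± 0.13 (SE), with an adjusted p of 0.460. Within sets A and B, high-fat minus control was -0.04 and 0.13 for Cldn4, so its sign turned, 0.20 and 0.05 for Cldn7, and 0.17 and 0.09 for Cldn9. With median scaling the averaged differences were 0.008 for Cldn4, 0.02 for Cldn7 and 0.06 for Cldn9. With array weights they were 0.25 for Cldn4 (adjusted p = 0.0395 in limma) and 0.31 for Cldn7 (adjusted p = 0.0177 in limma). That setting called 6128 of 19595 probes for diet, and Cldn9 was not among them. All 7 of these single-probe claudins were detected on all 12 arrays, with raw intensities of 43.5 to 89.9 for Cldn3, 53.3 to 99.7 for Cldn7 and 61.1 to 85.2 for Cldn9. Cldn4 read 642.7 to 1019.3.

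Cldn6 had an SD of 0.21 over the 12 embryos on the log2 scale. Its values were 12.17, 12.60 and 12.44 in control-diet knockout and 12.33, 12.47 and 12.80 in high-fat knockout embryos. It stood at 12.17, 12.42 and 12.17 in control-diet and 12.64, 12.33 and 12.20 in high-fat wild-type embryos. The 4 groups overlapped, and the raw intensity ran from 3961.7 to 8204.5. The diet difference was 0.13 ± 0.12 (SE), with an adjusted p of 0.595. Cldn5 stood at 8.99, 8.91 and 8.16 in control-diet knockout, 8.69, 8.59 and 8.18 in high-fat knockout, 8.81, 8.86 and 8.51 in control-diet wild-type and 8.99, 8.55 and 8.56 in high-fat wild-type embryos. The lowest embryos were knockout replicate 3 on each diet, and the groups overlapped. Its diet difference was -0.11 ± 0.16 (SE), with an adjusted p of 0.743.

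**Figure D3:**
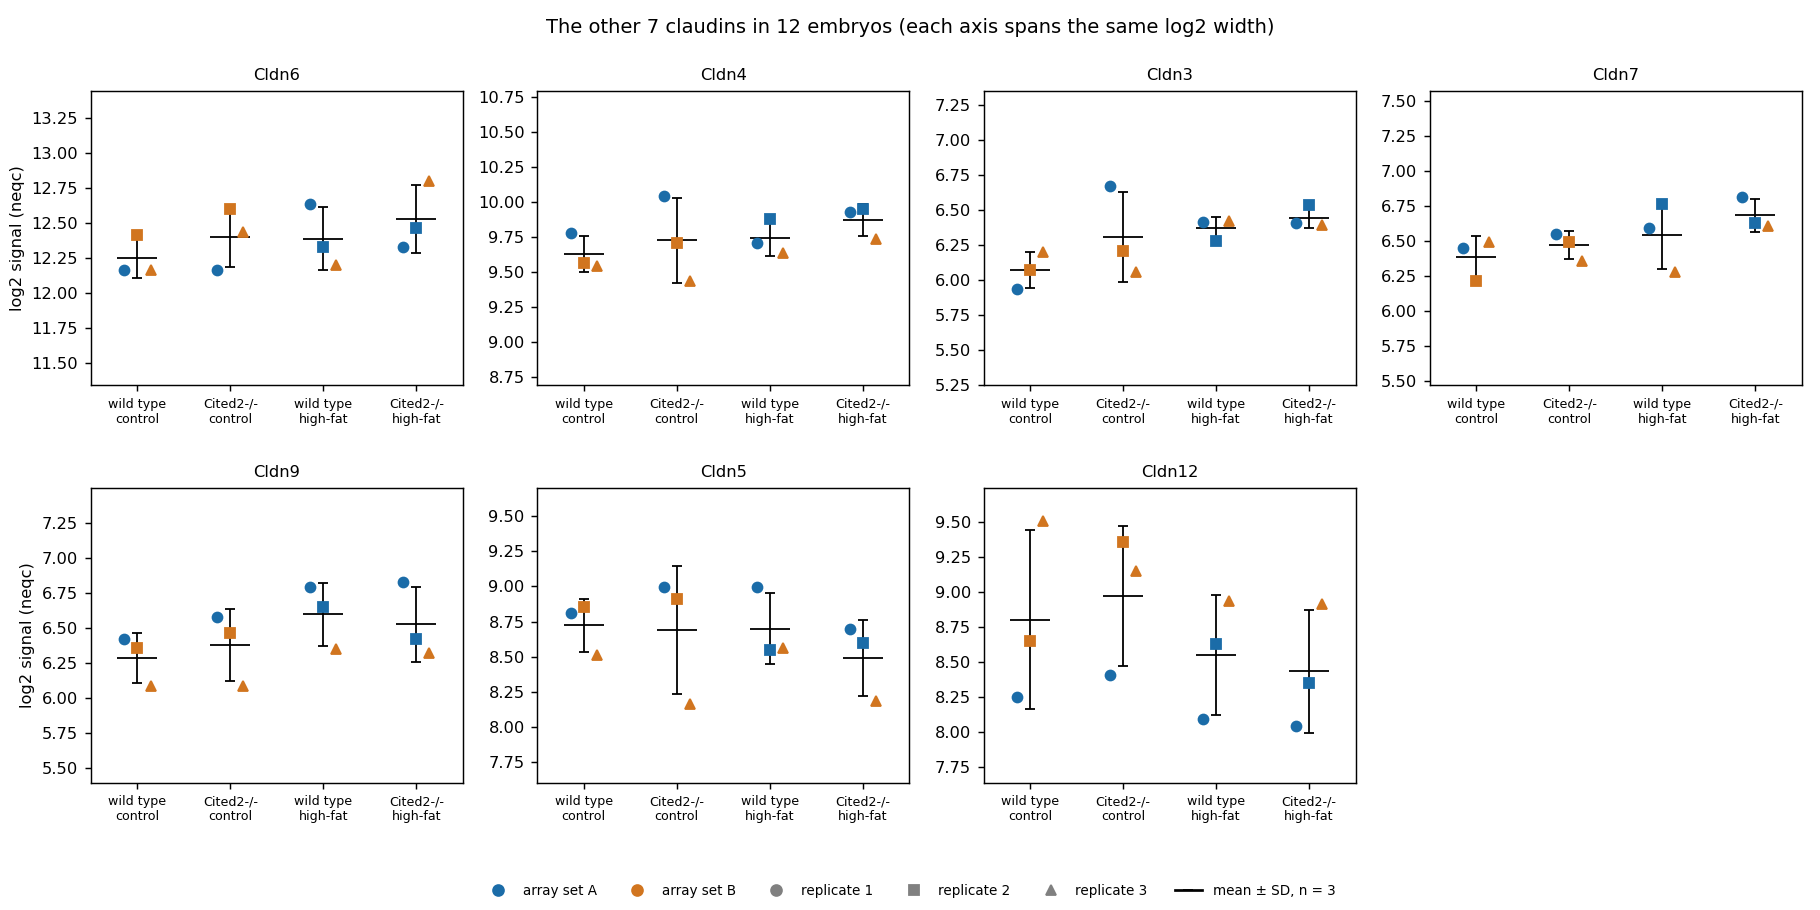
Log2 signal of Cldn3, Cldn4, Cldn5, Cldn6, Cldn7, Cldn9 and Cldn12 in each embryo, by diet and genotype, with group means and SD (3 embryos per group). Knockout and wild-type embryos overlap at each gene, and Cldn12 has the widest spread within groups, with set B above set A.

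Cldn12 was separated by array set and passed no test of genotype or diet. It stood at 8.41, 9.35 and 9.15 in control-diet knockout, 8.04, 8.35 and 8.91 in high-fat knockout, 8.25, 8.65 and 9.50 in control-diet wild-type and 8.09, 8.63 and 8.93 in high-fat wild-type embryos. Every embryo of set A was below every embryo of set B, at 8.29 ± 0.22 and 9.08 ± 0.32 (SD, n = 6 each), with raw intensities of 171.9 to 305.2 and 451.5 to 792.6. The same separation, with set B higher, was found at 11.1% of all tested probes. Within groups set B exceeded set A by 0.74 at Cldn12, and 92.9% of tested probes had a smaller gap. The other claudin probes had gaps of -0.34 to 0.15. The diet difference of Cldn12 was -0.39 ± 0.25 (SE), with an adjusted p of 0.482, and within sets A and B it was -0.05 and -0.24. Here the share of the array set in the diet difference was not tested.

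Marker lists of 7 tissues were set beside the claudins. The list of somite and presomitic mesoderm had 9 tested genes of 14 on the array, with Pax1, Pax3, Dll3, Mesp2 and Myf5 detected on no array. Its summed linear level was 1952 to 2436 in control-diet knockout, 2157 to 2578 in high-fat knockout, 3229 to 3659 in control-diet wild-type and 2861 to 3590 in high-fat wild-type embryos, so it was lower in all knockout embryos, as Cldn10 was. The knockout mean of the list was 6.89 ± 0.09 and the wild-type mean 7.35 ± 0.14 on the log2 scale (SD, n = 6 each). The epithelium list, with 12 tested genes of 15 on the array and Epcam, Spint2 and Prom1 detected on none, overlapped between genotypes, with sums of 10397 to 13083 in knockout and 10574 to 12156 in wild-type embryos. The lists were chosen with earlier results of these data known, and their part in the Cldn10 difference was not tested.

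Within a genotype, none of the 14 relations of Cldn10 with the 7 lists passed after adjustment, the somite list included. In the 6 wild-type embryos Pearson's r was 0.739 (exact permutation p = 0.1, adjusted p = 0.350 over 14 relations) and Spearman's rho was 0.600 (exact permutation p = 0.242). In the 6 knockout embryos r was 0.368 (exact permutation p = 0.424, adjusted p = 0.711) and rho was 0.714 (exact permutation p = 0.136). Leaving out the 2 embryos farthest from the list's median gave an r of 0.762 in the wild type and 0.793 in the knockout. Other lists had higher values of either sign. In the knockout r was 0.838 with neural tube (exact permutation p = 0.0458, adjusted p = 0.292), where rho was 0.429 (exact permutation p = 0.419) and r without the 2 farthest embryos was -0.952, so the relation rested on those embryos. In the knockout r was -0.752 with the yolk sac list (exact permutation p = 0.0597, adjusted p = 0.292), with a rho of -0.543 (exact permutation p = 0.297) and 0.493 without the 2 farthest. In the wild type r was -0.790 with gut endoderm (exact permutation p = 0.0625, adjusted p = 0.292), with a rho of -0.657 (exact permutation p = 0.175) and -0.380 without the 2 farthest. No r is given over both genotypes, since they form separate clusters.

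**Figure D4:**
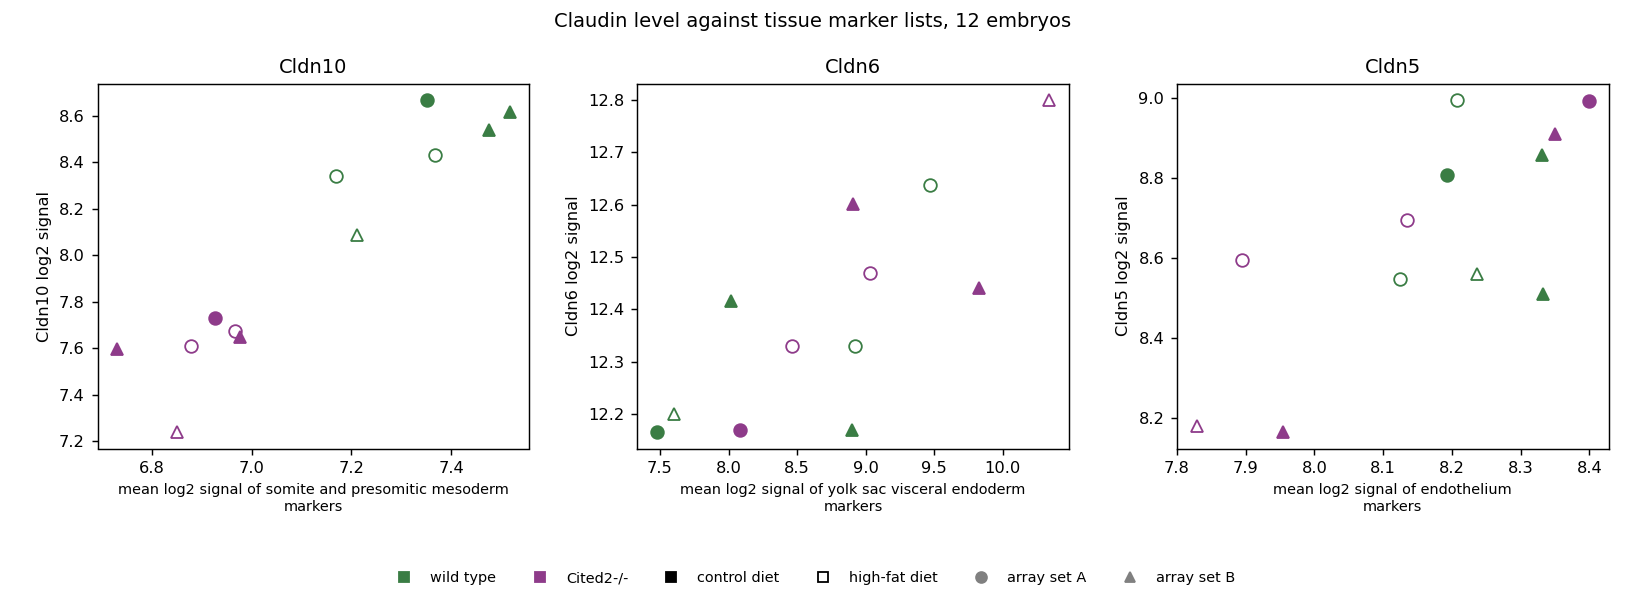
Claudin log2 signal against the mean log2 level of a marker list, 1 point per embryo. Cldn10 is set against the somite list, where knockout and wild-type embryos form separate clusters, and Cldn6 and Cldn5 against the yolk sac and endothelium lists.

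Of the 7 single-probe claudins, Cldn5 had its highest Pearson's r with the endothelium list and Cldn6 with the yolk sac visceral endoderm list, and neither passed after adjustment over 56 relations. For Cldn5 and endothelium (14 tested genes of 15 on the array, Erg detected on none) r was 0.740 over 12 embryos (permutation p = 0.0064, adjusted p = 0.0717). Spearman's rho was 0.601 (permutation p = 0.0418, adjusted p = 0.234). Leaving out the 2 most distant embryos gave 0.706, and array sets A and B gave 0.772 and 0.886. The endothelial sums were 9309 to 11889 in control-diet knockout, 8586 to 9823 in high-fat knockout, 10731 to 11664 in control-diet wild-type and 9892 to 11067 in high-fat wild-type embryos.

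For Cldn6 and the yolk sac list (14 tested genes of 17 on the array, Afp detected on none) r was 0.776 (permutation p = 0.0031, adjusted p = 0.0579). Spearman's rho was 0.795 (permutation p = 0.00296, adjusted p = 0.0553), r without the 2 farthest embryos was 0.584, and r within sets A and B was 0.916 and 0.686. The yolk sac sums ranged widely, from 9046 to 29792 in control-diet knockout, 11270 to 40869 in high-fat knockout, 6032 to 15058 in control-diet wild-type and 6786 to 24189 in high-fat wild-type embryos, although the yolk sac had been dissected away. Cldn12 alone of the single-probe claudins had a relation that passed, an r of 0.817 with the epithelium list (permutation p = 0.00143, adjusted p = 0.04). Its rho was 0.804 (permutation p = 0.00238, adjusted p = 0.0553). These values include the gap between the array sets, and r was 0.421 and 0.590 within sets A and B. The permutation did not keep embryos within their set, so it cannot tell the list from the set. The 56 adjusted relations also include those of Cldn10 over both genotypes. The smallest p, of Cldn10 with the somite list, carries the genotype difference for which Cldn10 was chosen. It eases the adjustment for Cldn12, so nothing is read from this pass.

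The remaining epithelial claudins had their highest r with the trophoblast list (4 tested genes of 7 on the array, with Elf5 and Tpbpa detected on none), and none passed after adjustment. For Cldn9 it was 0.754 (permutation p = 0.0052, adjusted p = 0.0717), with a rho of 0.636 (permutation p = 0.0301, adjusted p = 0.210), an r of 0.554 without the 2 farthest embryos, and 0.759 and 0.402 in sets A and B. Cldn3 had an r of 0.699 (permutation p = 0.0113, adjusted p = 0.105) and a rho of 0.741 (permutation p = 0.00772, adjusted p = 0.1), with 0.681 without the 2 farthest embryos, and 0.524 and 0.889 in the sets. For Cldn4 the r of 0.683 (permutation p = 0.0151, adjusted p = 0.121) did not hold in set A, at -0.06, against 0.871 in set B. Its rho was 0.699 (permutation p = 0.0152, adjusted p = 0.121), and r without the 2 farthest embryos was 0.733. Cldn7 gave 0.663 (permutation p = 0.0180, adjusted p = 0.123) and a rho of 0.622 (permutation p = 0.0346, adjusted p = 0.216), with 0.698 without the 2 farthest embryos, and 0.163 and 0.658 in the sets. The trophoblast sums were 1492 to 1909 in control-diet knockout, 1918 to 2041 in high-fat knockout, 1513 to 1709 in control-diet wild-type and 1660 to 2032 in high-fat wild-type embryos.

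The genes whose log2 signal over the 12 arrays was most like that of Cldn10, among 10763 named genes, were Meox1 (r = 0.976), 4930426D05Rik (r = 0.950), Uncx (r = 0.910), E030030I06Rik (r = 0.894) and Tcf15 (r = 0.880). Meox1, Uncx and Tcf15 encode transcription factors of the somites and are members of the somite list. These values include the genotype difference that was used to choose Cldn10. Within knockout and within wild-type embryos, r was 0.714 and 0.931 for Meox1, 0.486 and 0.548 for Uncx, and 0.780 and 0.432 for Tcf15. For 4930426D05Rik, which is not on the somite list, it was 0.729 and 0.684. E030030I06Rik had -0.740 and 0.576, so its likeness did not hold within the knockout. The most opposed genes were Stk17b (r = -0.928), Csmd3 (r = -0.907) and Lats1 (r = -0.903). Within knockout and within wild-type embryos r was -0.912 and -0.764 for Stk17b, -0.548 and 0.391 for Csmd3, and -0.03 and -0.651 for Lats1, so the opposition of Csmd3 turned in the wild type and that of Lats1 was near 0 in the knockout.

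By the same measure, the genes most like Cldn5 were Fxyd5 (r = 0.938), Grifin (r = 0.927) and Icam2 (r = 0.922), the last an adhesion molecule of endothelium and on that marker list. Cldn6 was most like Tfe3 (r = 0.919), Scap (r = 0.901) and Zdhhc9 (r = 0.878). Cldn3 was most like Grin2b (r = 0.899), Ppp1r13b (r = 0.854) and Tns3 (r = 0.850), and Cldn4 most like Zfp280d (r = 0.933), Hvcn1 (r = 0.932) and Rtn2 (r = 0.918). Cldn7 was most like Gm13238 (r = 0.925), Cables2 (r = 0.897) and Oma1 (r = 0.896). Cldn9 was most like Anks1 (r = 0.977), Map4k4 (r = 0.963) and P3h1 (r = 0.959). Cldn12 was most like Evl (r = 0.977), Skp1 (r = 0.972) and Bop1 (r = 0.972), values that include the gap between the array sets. All are descriptions over arrays that share processing and array set.

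Other tight junction genes did not pass the threshold in any of the 7 comparisons. A list of 44 such genes, namely other claudins, occludin and its relatives, junctional adhesion molecules, and scaffold and polarity proteins, had 39 genes on the array and 27 tested. For genotype averaged over diets, 0 of 27 were called by limma, against 0.0714% of all tested probes. An unadjusted p under 0.05 was reached by 1, against 656 of 19595 tested probes. Of the 27 differences, 13 were above 0 and 14 below. Their median was -0.007, against -0.0005 over all tested probes. The highest value was that of Cldn2 at 0.66 ± 0.45 (SE, adjusted p = 1.00), which forms cation channels. The lowest was that of Cldn11 at -0.55 ± 0.16 (SE, adjusted p = 0.900), a claudin of myelin and of the testis barrier.

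For diet averaged over genotypes, 0 of the 27 were called by limma, against 0% of all tested probes. An unadjusted p under 0.05 was reached by 4, against 2314 of 19595 tested probes. Of the 27 values, 17 were above 0 and 10 below, with a median of 0.01. The scaffold protein gene Patj was highest at 0.42 ± 0.19 (SE, adjusted p = 0.425), and Ildr2, whose product lies at corners where 3 cells meet, was lowest at -0.37 ± 0.11 (SE, adjusted p = 0.401). Occludin, Ocln, the strand protein beside claudins, differed by 0.34 ± 0.14 (SE, adjusted p = 0.413). Tjp1, the scaffold that anchors claudins to actin, differed by -0.13 ± 0.16 (SE, adjusted p = 0.672). Within the control diet 18 of the 27 genotype differences were above 0 and 9 below, and within the high-fat diet 4 were above 0 and 23 below, with medians of 0.08 and -0.12, against 0.002 and 0.003 over all tested probes. The diet difference in wild-type embryos was above 0 for 22 and below for 5, with a median of 0.16 against 0.03, and in knockout embryos above 0 for 12 and below for 15, with a median of -0.07 against 0.03. These comparisons share groups of embryos, and their counts are not independent. The diet differences of this list were not taken within array sets, over which the diets are unevenly split. Signs over all tested probes were not counted, so nothing is read from the counts above or below 0. The interaction had 5 above 0 and 22 below, and a median of -0.22 against -0.005 over all tested probes. It had 0 genes called by limma, against 0% of all tested probes. An unadjusted p under 0.05 was reached by 1 gene, against 247 of 19595 tested probes.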

How the data were processed

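Total RNA of 12 embryos in 4 groups was hybridised to 1 array each. The deposited average signal is a linear intensity per probe, exported by the authors from BeadStudio 3.2.6, per the submitters' processing notes, beside an intensity for the scatter over beads. The deposited detection p-value sets each probe against negative control beads, and the single-array tables hold it as a fraction (1 minus p), per the file headers. The deposited count of beads per probe was 24 to 64 for claudin probes. The authors' deposited table of log2 values had column medians of 4.98, 5.03 and 5.00 (control-diet knockout replicates 1 to 3), 5.01, 5.02 and 5.00 (high-fat knockout), 4.97, 5.00 and 5.01 (control-diet wild type) and 4.99, 5.00 and 5.00 (high-fat wild type). Each of its columns followed its own array's signal with a rank correlation of 1, and the sources used here do not give its normalization. Per-sample columns of other series numbered 0.

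Signals were background-corrected from the detection p-values and quantile-normalized with neqc (offset 16) in limma 3.58.1 under R 4.3.3. Probes detected at p under 0.01 on at least 3 of 12 arrays were fitted with lmFit and eBayes on 4 group means, and p-values were adjusted by Benjamini-Hochberg over all 19595, with a threshold of 0.05. The fit was tested on simulated data. Every probe of the 8 genes is reported, the brightest tested probe leading for Cldn10. The genes most like a claudin are the 5 highest and 3 lowest by Pearson's r for Cldn10 and the 3 highest for the others. Probe names came from the platform table, with 34885 probes on 1 symbol, 18 on several and the others unnamed. The members and lists were chosen with earlier results of these data known. Permutation tests used 100000 resamples, or all 720 orders within a genotype, and were two-sided. Alternatives were the background correction, the scaling, the filter on dim probes, array weights, array set and replicate blocks, and leaving out each embryo. The number of arrays limits the precision.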

Additional observations from a re-analysis of the deposited data

How the results depend on the processing

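The claudin probes called for genotype averaged over diets numbered 1 as reported and 2 with median scaling, with the authors' deposited log2 values, with the array set as a block, with a replicate block by replicate number and with one by replicate number within diet, the last chosen after seeing the data. They numbered 3 with array weights and 0 with a replicate block by title number. Leaving out each embryo gave 1 to 2, the 2 without control-diet knockout replicate 1. Within the control diet the count of 0 became 2 with median scaling and with the array set block, and 1 with the authors' values, the block by replicate number and array weights. Leaving out each embryo gave 0 to 1, the 1 without high-fat replicate 3 of either genotype. Within the high-fat diet 0 became 1 with the authors' values and the array set block and 3 with array weights. Every such call was a Cldn10 probe, whose gene was chosen for its genotype difference, so nothing is read from these genotype counts. The diet count of 0 became 3 with array weights (Cldn3 0.24, adjusted p = 0.0396; Cldn4 0.25, adjusted p = 0.0395; Cldn7 0.31, adjusted p = 0.0177) and 1 within wild-type embryos (Cldn7). Array weights called 6128 of 19595 probes for diet and 120 for genotype, against 0 and 14. The block by replicate number called 338 for diet and 24 for genotype, the array set block 27 for genotype and the block by title number 7, and the 14496 probes detected on all 12 arrays gave 4. The cause was not tested. Counts for diet in knockout embryos and for the interaction were 0 under all alternatives run.

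The Cldn10 genotype difference was -0.92 to -0.80 when each embryo was left out, and reversed at the probes with no detected signal, to 0.13 at ILMN_1257561 and 0.0208 at ILMN_2610656. Differences near 0 changed sign. Cldn6 for diet became -0.00386 with array weights. Cldn9 for genotype became -0.0167 with median scaling, -0.00145 with the authors' values and -0.0541 with array weights. Leaving out each embryo gave -0.0671 to 0.0825 for Cldn9, -0.20 to 0.00872 for Cldn5 and -0.11 to 0.20 for Cldn12. The genotype differences of Cldn3, Cldn4, Cldn6 and Cldn7 stayed above 0, at 0.07 to 0.22, 0.04 to 0.19, 0.08 to 0.21 and 0.04 to 0.17.

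Deviations from the group means of same-numbered embryos correlated at -0.53 to 0.37 over 6 pairs by title number. By replicate number they correlated at 0.098 to 0.68, and every such pair lay within the same array set. Pairs by title number gave 0.20 and 0.37 within a set and -0.53 to -0.12 across sets. The pairs thus differ in array set, and these values cannot decide whether either number pairs the embryos. The labels do not say what the numbers mark, so neither was taken to pair the embryos. The blocks by title number and by replicate number within diet are nested in diet and gave no diet value. The diet difference of Cldn10 kept its sign under every alternative run, at -0.40 to -0.14. ILMN_2723576, near the detection limit, is the least firm of the tested Cldn10 probes.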

Other observations

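In RefSeq's annotation of GRCm38.p6, Cldn3 and Cldn4 are neighbouring protein-coding genes, and so are Cldn6 and Cldn9. Cldn10 lies on another chromosome than Cited2. In sets A and B of 6 arrays each, Pearson's r of log2 signal was 0.65 and 0.73 for Cldn3 with Cldn4, and 0.40 and 0.42 for Cldn6 with Cldn9, given as descriptions with no test. The other pairs of single-probe claudins ran from -0.58 (Cldn5 with Cldn7, set A) to 0.78 (Cldn4 with Cldn9, set B). Nothing is read about neighbours from these values. Other claudins with a tested probe were Cldn1, Cldn2, Cldn11, Cldn15 and Cldn23. Cldn8, Cldn13, Cldn14, Cldn16, Cldn17, Cldn18 and Cldn19 had a probe and a detected signal on no array.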
